A study of Pantherophis guttatus with 6 samples.

Results

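The genes described here lie along NW_026844054.1, the scaffold of the corn snake (*Pantherophis guttatus*) CU assembly that carries *BACE2*. *BACE2* encodes a protease that cuts the melanosome matrix protein PMEL into fragments that form fibrils. Of the 25731 genes used from the count table, 142 have their first annotated exon on this scaffold, and the members are the 141 that remain once *BACE2* is left out. They were taken by position alone, whatever their own counts. The scaffold itself was picked because *BACE2* was lower in hypomelanistic embryos in the comparison described here, so differences of its neighbours between the genotypes are given as a description, and nothing is read from their number.

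RNA came from the dorsal skin of 6 corn snake embryos taken at embryonic day 40. There were 3 homozygotes for the hypomelanistic allele (mh/mh), which reduces melanin, and 3 wild-type homozygotes (+/+). All were siblings from a single clutch of heterozygous parents, so each library is a separate animal, and p-values measure the spread between siblings. No treatment was applied. The study names the sex of the embryos as a main source of differences between these libraries. The labels give no sex or batch for any embryo, so the part of either in the results was not tested. Since whole skin was sequenced, fewer cells of a type and less RNA per cell cannot be told apart. In such a cross an embryo receives a long stretch of each parental chromosome at once, and genes that lie near each other are mostly inherited together. An allele that differs in expression therefore tends to travel with its neighbours. The position of a gene on its chromosome is for this reason a property to be read beside its expression.

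The scaffold joins 2 groups of genes that lie on different chromosomes in humans. From *PTCHD1* (start 69063) to LOC117669436 (start 17268070) it holds 84 members, and all 45 of them that were assigned a human X homologue lie there, among them *EIF2S3*, *DMD*, *DDX3X* and *KDM6A*. The same stretch holds *RPL8*, whose human homologue is on chromosome 8, and genes with no homologue assigned, such as *DDX23-like* and *NYNRIN-like*. From *DNMT3L-like* (start 17338411) to *LCA5-like* (LOC132712495, end 20264539) it holds 57 members, of which 44 were assigned a homologue on human chromosome 21, as is that of *BACE2*. *BACE2* itself spans 19223572 to 19258167 on the minus strand and is gene 121 of 142 by position, with 120 members before it and 21 after it. No human homologue was assigned to 51 members, most of them known only by a LOC number.

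Of the 141 members, 95 had enough counts to be tested, 37 had counts but too few, and 9 had none in any library. In the newer annotation 89 members are protein coding and 27 are long non-coding RNAs, of which 75 and 10 were tested. Of the tested members, 6 averaged 100 CPM or more (counts scaled to a common library size), 37 lay between 10 and 100, 32 between 1 and 10, and 20 under 1. The members together took 0.383% to 0.431% of the counts of a library. *RPL8*, a protein of the large ribosomal subunit, held 37.1% to 44.2% of those counts. Per kb of annotated exon it had the highest level on the scaffold, at 1811 CPM per kb over all libraries, followed by *EIF2S3*, a subunit of the factor that brings the initiator tRNA to the ribosome, at 173.0 CPM per kb. *PRDX4*, a peroxiredoxin of the endoplasmic reticulum, followed at 119.1, the RNA helicase *DDX3X* at 77.4, and *ATP6AP2*, an accessory protein of the vacuolar proton pump, at 49.7 CPM per kb. *BACE2* lay at 20.9 CPM per kb.

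In a newer chromosome-level assembly of the species, *BACE2* and *TYR* lie on the same chromosome. *TYR* encodes tyrosinase, which starts melanin synthesis, and lies in the interval whose edges were used to genotype the embryos. Of the 119 members found in that annotation, 118 were on this chromosome. In the CU assembly *TYR* is on another scaffold, NW_026844016.1.

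Library totals were 29958657 to 38541392 counts. Ribosomal RNA genes took 10.2% to 13.5% of the counts in hypomelanistic and 7.39% to 8.83% in wild-type libraries. Genes defining skin (*COL1A1*, *COL1A2*, *LUM*, *TP63*, *DSP*, *PMEL*, *DCT*) were present in all libraries. By summed markers, skeletal muscle ranged from 265.1 to 964.1 CPM in hypomelanistic and from 331.3 to 983.0 CPM in wild-type libraries. The 4 neuronal markers summed to 6.23 to 6.98 CPM in hypomelanistic and 7.004 to 13.0 CPM in wild-type libraries, so these groups were narrowly apart. Of their 3 tested genes 2 were lower in hypomelanistic embryos, 1 of them at an unadjusted edgeR p under 0.05 (*PRPH*). All 5 fibroblast markers were also lower, 2 of them at an unadjusted edgeR p under 0.05 (*DPT* and *POSTN*), as were all 3 Schwann cell markers, 1 of them at that level (*FABP7*), although the summed levels of both lists overlapped between the groups. *STMN2* and *ELAVL4*, which define neurons, stayed under 0.3 CPM in all libraries apart from *STMN2* at 1.94 CPM in wild-type 2. Of 8 tested keratinocyte genes 2 were higher and 6 lower in hypomelanistic embryos. At an unadjusted edgeR p under 0.05 were *TP63*, which was higher, and *EVPL*, which was lower. Of 5 melanophore markers 1 was higher and 4 lower, with 0 at that level (5.63% of all tested genes were). The summed levels of both lists overlapped between the groups.

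*BACE2* is given for reference, without a test, since its value chose the scaffold. It stood at 67.1, 65.8 and 65.4 CPM in hypomelanistic embryos 1, 2 and 3, and at 94.4, 93.9 and 93.7 CPM in wild-type embryos 1, 2 and 3. Within each group the values were close together, and the groups were far apart. Its log2 fold change was −0.51 ± 0.052 (SE).

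Along the scaffold most differences were small, and more members were lower than higher in hypomelanistic embryos. Of 95 tested members, 65 were lower and 30 higher, where 8334 of all 17025 tested genes were lower (49.0%). More than 60% of genes were lower on 16 of the 96 scaffolds with at least 20 tested genes. Without hypomelanistic 1, 56.7% of the members and 50.2% of all tested genes were lower. The median log2 fold change of the members was −0.08, against 0.0038 over all tested genes, and the quartiles of the members were −0.24 and 0.049. The difference was within 0.2 on the log2 scale for 51 members and beyond 0.5 for 12, of which 6 were higher and 6 lower (6.95% of all tested genes were beyond 0.5). The median level was 4.07 CPM for the tested members and 15.1 CPM over all tested genes. The shares over all genes are not matched for level. By the edgeR adjusted p, 0 of 95 members passed (background 0.0235%, 4 of 17025 genes), while 13 were at an unadjusted p under 0.05 (background 5.63%). Of these, 4 were higher (background 2.97%) and 9 lower (background 2.65%). DESeq2 called 2 members, *GATD3* and *DYNLT3* (background 0.475%). The groups did not overlap for 18 members (background 12.2%), 4 of them higher (background 5.77%) and 14 lower (background 6.39%) in hypomelanistic embryos. The same comparison chose the scaffold, so these shares are not evidence about it.

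**Figure D1:**
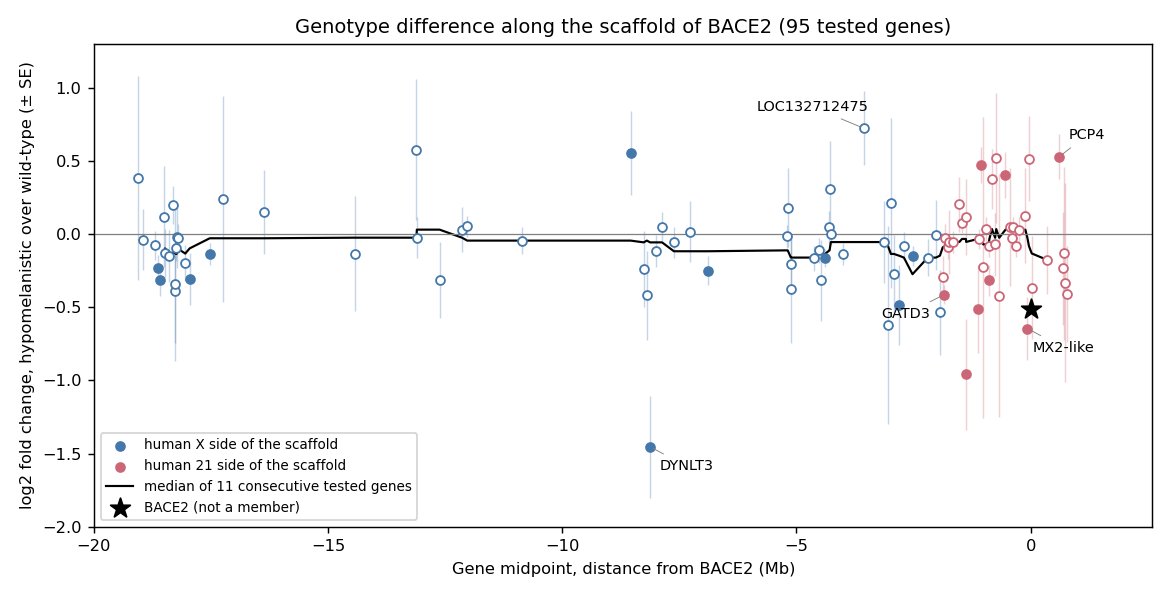
Log2 fold change of each tested member (± SE, hypomelanistic over wild-type, 3 embryos each) against its distance from *BACE2* in Mb. Filled points are genes whose groups do not overlap, blue marks the side with homologues on human X and red the side with homologues on human 21, and the line is the median of 11 consecutive tested members, which runs between −0.27 and 0.048.

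By signed medians, the difference was not largest in the part around *BACE2*. In 5 successive parts of 19 tested members each, the median log2 fold changes from the start of the scaffold were −0.097, −0.044, −0.14, −0.054 and −0.070. The number of members whose groups did not overlap was 4, 3, 3, 5 and 3 in the same order. As shares these were 21.1%, 15.8%, 15.8%, 26.3% and 15.8% (background 12.2%), and nothing is read from such small counts. Taken without sign, the median log2 fold changes were 0.15, 0.13, 0.16, 0.20 and 0.23, against 0.11 over all tested genes. The largest of these belongs to the part around *BACE2*. The tested members of that part had a median level of 1.52 CPM, against 15.1 CPM over all tested genes. A running median over 11 consecutive members was below 0 in 74 of 85 windows, lowest around *KDM6A* (−0.27) and highest around *UMODL1* (0.048), which lies 405.1 kb before *BACE2*. On the human X side 42 of 58 tested members were lower, with a median of −0.10. On the human 21 side it was 23 of 37, with a median of −0.054. At an unadjusted edgeR p under 0.05 were 10.3% of the X side and 18.9% of the 21 side (background 5.63%). Whether the sides differ was not tested.

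Of the 10 nearest tested members before *BACE2*, 6 were higher and 4 lower in hypomelanistic embryos (median log2 fold change 0.039). Of the 7 tested members after it, 1 was higher and 6 lower, with a median of −0.23. *FAM3B*, which encodes a secreted cytokine-like protein, lies 6.22 kb from *BACE2*. It stood at 1.43, 0.881 and 1.35 CPM in hypomelanistic embryos 1, 2 and 3 and at 1.04, 0.774 and 0.747 CPM in wild-type embryos 1, 2 and 3. The groups overlapped, and its log2 fold change was 0.52 ± 0.292 (SE), opposite in sign to that of *BACE2*.

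Beyond it, 37.8 kb from *BACE2*, is *MX2-like* (LOC117669471), named *MX1* in the newer annotation, an interferon-induced GTPase. It stood at 3.24, 2.14 and 3.57 CPM in hypomelanistic embryos and at 4.27, 5.10 and 4.66 CPM in wild-type embryos, in the order of their numbers. All hypomelanistic values were below all wild-type values. The difference was −0.64 ± 0.219 on the log2 scale (adjusted p = 0.828 by edgeR). *TMPRSS2*, a serine protease of epithelial cell membranes, was weakly expressed, at 1.13 ± 0.353 CPM in hypomelanistic and 1.04 ± 0.218 CPM in wild-type embryos (SD, n = 3 each).

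Further out, 4 well expressed genes showed nearly equal levels in the 2 groups. *RIPK4*, a kinase that epidermal cells need for differentiation in mice, lies 204.2 kb from *BACE2* and averaged 38.4 ± 2.28 CPM in hypomelanistic and 37.6 ± 3.53 CPM in wild-type embryos. *PRDM15*, a zinc finger transcription factor, averaged 20.2 ± 0.892 and 21.4 ± 0.804 CPM. *C2CD2*, which encodes a protein with a lipid-binding C2 domain, averaged 27.8 ± 0.505 and 26.9 ± 1.11 CPM, and *ZBTB21*, a zinc finger transcription factor, 26.8 ± 0.445 and 27.3 ± 1.66 CPM. Their log2 fold changes were 0.030 ± 0.090, −0.081 ± 0.077, 0.048 ± 0.069 and −0.024 ± 0.075. The groups overlapped in all 4 genes, and the sign for *RIPK4* and *ZBTB21* turned when 1 library was left out.

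*ABCG1*, which exports cholesterol from cells, lies 498.5 kb from *BACE2*. It stood at 4.69, 6.39 and 6.01 CPM in hypomelanistic embryos and at 4.12, 4.55 and 4.24 CPM in wild-type embryos. The groups did not overlap, although hypomelanistic 1 came close to the wild-type range. Its log2 fold change was 0.40 ± 0.160. *UMODL1*, named after uromodulin, and *TMPRSS3*, another membrane serine protease, stayed under 0.6 CPM in every library, and *TMPRSS3* had 0 counts in hypomelanistic 1, which allows up to 3 counts.

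After *BACE2* the scaffold is sparse, with 21 members of which 7 could be tested. LOC117669475, which begins 0.217 kb from the start of *BACE2* on the opposite strand, stood at 0.325 to 0.566 CPM in hypomelanistic and 0.419 to 0.721 CPM in wild-type embryos, and its groups overlapped. *DSCAM*, a cell adhesion molecule of the nervous system, averaged 1.43 ± 0.280 and 1.62 ± 0.117 CPM, and 3 genes lie within its span on the opposite strand, so its value is uncertain.

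*PCP4*, which encodes a small protein that binds calmodulin, lies 563.3 kb beyond *BACE2* and was the only tested member after it whose groups did not overlap. It stood at 11.6, 16.1 and 16.8 CPM in hypomelanistic embryos and at 10.3, 9.94 and 10.6 CPM in wild-type embryos. Every hypomelanistic value was above every wild-type value, with hypomelanistic 1 nearest to them. The difference was 0.53 ± 0.151 on the log2 scale (adjusted p = 0.828 by edgeR, 0.135 to 0.986 over 13 alternatives).

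The next members varied widely among embryos of one genotype. The pair of *B3GALT5-like* genes, named after a galactosyltransferase, overlap on the same strand and share part of their span, so their counts are uncertain. LOC117669393 ranged from 0.641 to 1.49 CPM in hypomelanistic and from 0.516 to 2.45 CPM in wild-type embryos. *IGSF5*, an immunoglobulin family member of cell junctions, ranged from 0.466 to 0.487 CPM and from 0.290 to 0.747 CPM.

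*SH3BGR*, which is expressed in heart and skeletal muscle, stood at 4.43, 7.68 and 6.63 CPM in hypomelanistic and at 7.52, 12.1 and 5.29 CPM in wild-type embryos. The summed skeletal muscle markers of the same libraries were 265.1, 964.1 and 771.1 CPM and 793.5, 983.0 and 331.3 CPM. Both put the 6 libraries in the same order, from hypomelanistic 1 as the lowest to wild-type 2 as the highest, and their relation was not tested. The remaining members near this end, 8 genes named after *LCA5* or *LCA5L*, had at most 7 counts over all libraries together and were not tested, among them the last gene of the scaffold.

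**Figure D2:**
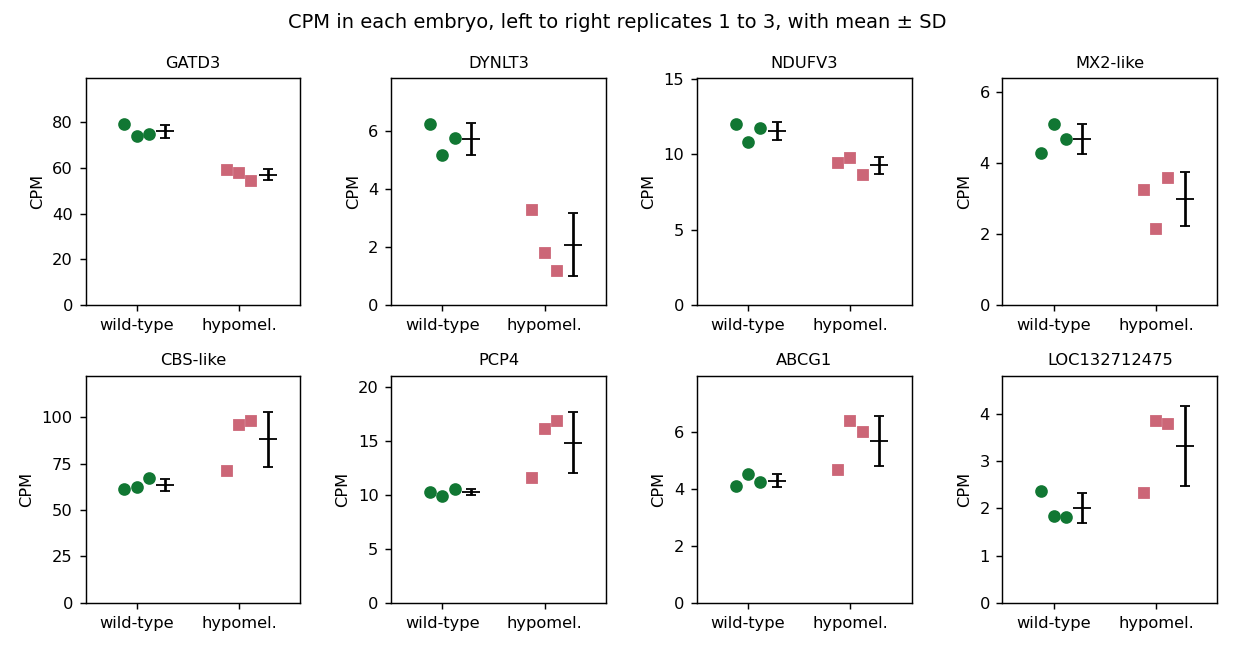
CPM in each embryo for 8 members with an unadjusted edgeR p under 0.05, wild-type as circles and hypomelanistic as squares, with mean ± SD beside the points and axes from 0. In the upper row the groups do not overlap and hypomelanistic values are lower. In the lower row hypomelanistic 1 is the lowest of its group in all 4 genes, and *LOC132712475* overlaps between the groups.

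The 9 members lower in hypomelanistic embryos at an unadjusted p under 0.05 lay from *ACOT9* near the scaffold start to *MX2-like*. None of them lay between *SAT1* (end 656265) and *DYNLT3* (start 11108346). *GATD3*, a mitochondrial protein of the glutamine amidotransferase-like family, had the smallest p of all members and lies 1818 kb from *BACE2*. It stood at 59.1, 57.8 and 54.3 CPM in hypomelanistic embryos and at 79.2, 74.0 and 74.6 CPM in wild-type embryos. The 2 groups were separated by a gap wider than the range within either. Its log2 fold change was −0.41 ± 0.063, with adjusted p-values of 0.267 by edgeR and 0.000977 by DESeq2, in a range up to 0.760 over 13 alternatives. Its widest range within a genotype was 0.12 (log2 CPM), against 0.038 for *BACE2*. Likeness of members to *BACE2* was not measured.

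*DYNLT3*, a light chain of the dynein motor that moves cargo along microtubules, had the largest difference of the scaffold and lies 8102 kb from *BACE2*. It stood at 3.29, 1.79 and 1.19 CPM in hypomelanistic embryos and at 6.25, 5.16 and 5.77 CPM in wild-type embryos. The highest hypomelanistic value was below the lowest wild-type value, and hypomelanistic embryos varied more among themselves. Its log2 fold change was −1.45 ± 0.346, with adjusted p-values of 0.763 by edgeR and 0.0150 by DESeq2, which was also the lowest of its 13 alternatives (the highest was 0.986).

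Other members with groups apart had larger unadjusted edgeR p-values. *NDUFV3*, an accessory subunit of respiratory complex I, stood at 9.44, 9.72 and 8.64 CPM in hypomelanistic and at 12.02, 10.8 and 11.7 CPM in wild-type embryos, but it overlaps *WDR4* on the opposite strand and is uncertain. *SAT1*, the enzyme that starts the breakdown of polyamines, stood at 9.09, 9.63 and 8.50 CPM and at 10.4, 12.1 and 11.3 CPM. *ACOT9*, a mitochondrial thioesterase of acyl-CoA, stood at 37.8, 42.7 and 42.8 CPM and at 45.1, 52.9 and 46.9 CPM. In all 3 genes the hypomelanistic values were below the wild-type values, with log2 fold changes of −0.32 ± 0.104, −0.31 ± 0.109 and −0.23 ± 0.088.

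*MID1IP1*, which promotes fatty acid synthesis, averaged 25.3 ± 3.08 CPM in hypomelanistic and 30.1 ± 0.414 CPM in wild-type embryos. *USP9X*, an enzyme that removes ubiquitin, averaged 101.7 ± 5.42 and 113.6 ± 1.99 CPM, and 2 predicted genes lie within its span. *HSF2BP*, a protein of meiotic recombination, averaged 0.466 ± 0.209 and 0.914 ± 0.201 CPM and overlaps *SIK1* on the same strand. Its log2 fold change was −0.96 ± 0.378. *EFHC2*, a protein of cilia, averaged 1.41 ± 0.462 and 1.97 ± 0.0829 CPM, with hypomelanistic 1 at 1.89 and wild-type 3 at 1.91 CPM. Each of these 4 had groups apart, as had *KDM6A*, *POLA1*, *PCYT1B* and *CRYAA*, with log2 fold changes of −0.15 ± 0.068, −0.13 ± 0.076, −0.31 ± 0.177 and −0.51 ± 0.299. *CRYAA*, the lens crystallin, stayed under 0.5 CPM. In *KDM6A* the groups were barely apart, with hypomelanistic 2 at 53.02 and wild-type 1 at 53.03 CPM. The ribosomal RNA share, the neuronal marker sum and single fibroblast, Schwann cell and keratinocyte markers given above also differed between the groups. Their part in the differences of these members was not tested. With ribosomal RNA genes left out, 13 members had an unadjusted edgeR p under 0.05. The share over all tested genes is not given for that fit. That fit mainly changes how the libraries are scaled, so it cannot show the part of the ribosomal RNA share.

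Of the 4 members higher in hypomelanistic embryos at an unadjusted p under 0.05, *CBS-like* (LOC117669452) was the most strongly expressed. It is annotated after cystathionine beta-synthase, which commits homocysteine to the synthesis of cysteine, and lies 1027 kb from *BACE2*. It stood at 71.2, 95.7 and 97.7 CPM in hypomelanistic embryos and at 61.2, 62.3 and 67.3 CPM in wild-type embryos. The groups did not overlap, and hypomelanistic 1 lay nearer to the wild-type embryos than to the other hypomelanistic ones. The difference was 0.47 ± 0.124 on the log2 scale (adjusted p = 0.828 by edgeR, 0.0609 to 0.986 over 13 alternatives). A second *CBS-like* copy beside it, LOC117669391, ranged from 0.126 to 0.874 CPM and from 0.0288 to 0.936 CPM.

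The long non-coding RNA LOC132712475 had the largest fold upwards. It stood at 2.33, 3.84 and 3.79 CPM in hypomelanistic and at 2.36, 1.84 and 1.82 CPM in wild-type embryos. Hypomelanistic 1 and wild-type 1 overlapped, and its log2 fold change was 0.72 ± 0.253. *CFAP47*, a protein of cilia and flagella, averaged 1.12 ± 0.201 and 0.763 ± 0.180 CPM without overlap, but 3 genes overlap its long span. Its groups were barely apart, with hypomelanistic 3 at 0.948 and wild-type 2 at 0.936 CPM.

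Of the 6 members at 100 CPM or more, *USP9X* had groups apart, as given above, and the groups overlapped in the other 5. *RPL8* stood at 1556, 1662 and 1922 CPM in hypomelanistic and at 1757, 1497 and 1723 CPM in wild-type embryos. *DDX3X* stood at 359.0, 401.3 and 381.4 CPM and at 391.2, 382.5 and 369.2 CPM. The groups overlapped in both genes, with log2 fold changes of 0.047 ± 0.111 and −0.0015 ± 0.070, whose signs turned with single libraries and, for *DDX3X*, also with the scaling. *EIF2S3*, *PRDX4* and *ATP6AP2* had overlapping groups as well, with log2 fold changes of −0.097 ± 0.084, −0.075 ± 0.099 and −0.17 ± 0.087.

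A few further genes of the human X side are given for their known roles in muscle, eye or brain, chosen after their values were seen. *DMD*, which encodes dystrophin, the link between the cytoskeleton and the matrix around muscle fibres, averaged 51.7 ± 3.15 CPM in hypomelanistic and 53.3 ± 5.37 CPM in wild-type embryos. *BCOR*, a transcriptional corepressor, averaged 35.2 ± 2.52 and 35.5 ± 1.64 CPM. *CASK*, a scaffold protein of synapses and epithelia, averaged 77.7 ± 6.09 and 85.3 ± 2.54 CPM. *NDP*, a secreted ligand of the receptor FZD4, averaged 1.27 ± 0.288 and 1.53 ± 0.293 CPM, and *RPGR*, a protein of the photoreceptor cilium, 10.9 ± 1.03 and 11.4 ± 0.273 CPM. The groups overlapped in these 5 genes, unlike in *USP9X* of the same side and, by a narrow margin, *KDM6A*.

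*SYTL5* belongs to the synaptotagmin-like proteins, which bind RAB27 on vesicles, and averaged 18.4 ± 0.761 CPM in hypomelanistic and 19.9 ± 2.54 CPM in wild-type embryos. It overlaps *SRPX* on the opposite strand. *TSPAN7*, a membrane tetraspanin, averaged 3.47 ± 0.636 and 3.42 ± 0.571 CPM. *CYBB-like* (LOC117669403), annotated after the oxidase of phagocytes and named *CYBB* in the newer annotation, stood at 1.75, 1.89 and 1.65 CPM and at 1.41, 3.10 and 2.57 CPM. Its wild-type embryos alone spanned more than the hypomelanistic ones, and the groups overlapped. *DDX23-like* (LOC117669373), listed as a pseudogene in the newer annotation, stood at 1.40, 1.70 and 1.52 CPM and at 1.47, 1.29 and 0.329 CPM, where wild-type 3 alone was low. Its log2 fold change was 0.58 ± 0.482, and 0.16 without wild-type 3.

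By role, the lists for the human 21 side held members in both directions or too few to compare. Transcription factors (*PKNOX1*, *ZBTB21* and *PRDM15*) were 1 higher and 2 lower, with groups overlapping in all 3. Chromatin, RNA and replication genes (*DNMT3L-like*, *RRP1B*, *U2AF1* and *WDR4*) were 1 higher and 3 lower, again with overlap in all 4. Of the signalling genes, *SIK1*, *PDE9A* and *RIPK4* were higher, with 0 at an unadjusted edgeR p under 0.05 (background 5.63%), and *UBASH3A* was not tested. *SIK1*, a kinase induced by cyclic AMP, had within-group ranges of 13.4 to 22.3 CPM and 12.3 to 19.99 CPM, and its span overlaps *RRP1B* and *HSF2BP*.

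The list of transporters held *ABCG1*, the sugar phosphate exchanger *SLC37A1* and *TRAPPC10*, a subunit of a vesicle tethering complex, beside an untested *TRAPPC10-like* gene, with 1 of the tested 3 higher and 2 lower. The adhesion list (*FAM3B*, *DSCAM*, *PCP4* and *IGSF5*) was 2 higher and 2 lower, with 1 at an unadjusted edgeR p under 0.05 (*PCP4*, background 5.63%). The 2 higher ones, *FAM3B* and *PCP4*, encode a secreted protein and a calmodulin-binding protein, not adhesion molecules. *DSCAM* and *IGSF5* were lower, with groups overlapping. Of the proteases, *TMPRSS2* was higher and *TMPRSS3* lower, and the interferon list held *MX2-like* alone. The list of mitochondrial and metabolic genes had 14 members, of which 10 were tested, 3 higher and 7 lower. At an unadjusted edgeR p under 0.05 were 2 (*CBS-like* and *NDUFV3*, background 5.63%), and nothing is read from such small counts. It includes *C2CD2*, *SH3BGR* and the *LCA5L-like* genes, which are not enzymes. *AGPAT3*, an acyltransferase of phospholipid synthesis, was its most expressed member after *CBS-like*, at 52.8 ± 3.20 CPM in hypomelanistic and 54.8 ± 3.04 CPM in wild-type embryos. No list member passed by the edgeR adjusted p or by DESeq2. The lists leave out *GATD3*, a mitochondrial protein of the same side that DESeq2 called.

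Library hypomelanistic 1 was low along the scaffold, and it also stood apart elsewhere in the genome. On 8 of 96 scaffolds with at least 20 tested genes its median deviation from the 6-library mean was 0.33 to 0.72 (log2 CPM). Every other library was below 0 there, but a mean that includes a high library lowers the others. On these scaffolds 4% to 30.6% of genes were lower in hypomelanistic embryos. These scaffolds enter the share over all genes given above. The median over the 95 tested members of the deviation from the 6-library mean was −0.13 in hypomelanistic 1, 0.060 in 2 and −0.019 in 3, and 0.022, 0.076 and 0.041 in wild-type 1, 2 and 3 (log2 CPM). Hypomelanistic 1 gave the lowest of the 6 values for 36 members and the highest for 5, while wild-type 2 was lowest for 8 and highest for 26. In each of the 5 parts of the scaffold hypomelanistic 1 was the lowest library, from −0.24 in the first to −0.081 in the last. Hypomelanistic 2 was above 0 in all 5. Thus the hypomelanistic embryos did not share a level over the scaffold. All wild-type medians over the 95 tested members were above 0, but a mean that includes a low library raises the others. Their sign is therefore not read as a level shared by the wild-type embryos. By parts, wild-type 1 was at −0.015 in part 2 and −0.0075 in part 4, and wild-type 3 was at −0.077 in the last.

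Without hypomelanistic 1, 55 of 97 tested members were lower and 42 higher, and the median log2 fold change was −0.022. Without hypomelanistic 2, it was 73 lower and 24 higher, with a median of −0.14. The excess of lower members therefore varied with single embryos. The number at an unadjusted edgeR p under 0.05 was 13 of 95 in the main test (background 5.63%). It was 6 of 96 without wild-type 2 and 6 of 96 without wild-type 3. The share over all tested genes is not given for fits without 1 library, which also have fewer embryos.

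**Figure D3:**
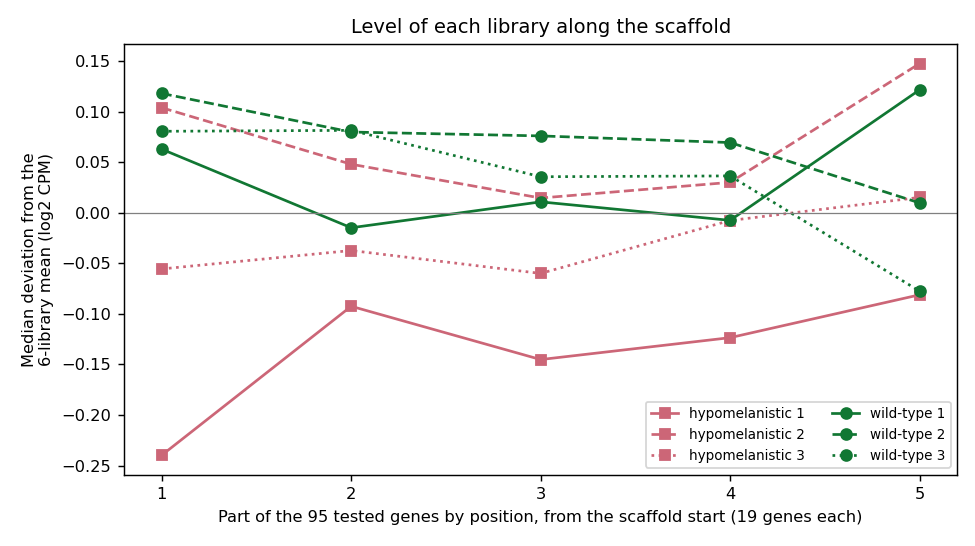
Median deviation of each library from the mean of all 6 (log2 CPM) in 5 parts of the tested members by position, 19 genes each. Hypomelanistic 1 is the lowest line in every part, and hypomelanistic 2 stays above 0 in all 5, with the highest value of the 6 libraries in the last part.

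Set among all scaffolds with at least 20 tested genes (96 scaffolds, *BACE2* counted with its own), that of *BACE2* had 14.6% of its genes at an unadjusted p under 0.05, and the groups did not overlap for 19.8%. These shares come from the comparison that chose the scaffold, so they are given as a description. Its share of lower genes, 68.8% (68.4% without *BACE2*), was the 6th highest, and 16 of the 96 scaffolds had more than 60% lower. The scaffold of *TYR* had the highest shares at an unadjusted edgeR p under 0.05 and of non-overlapping groups, with 24.5% and 35.0% of 380 tested genes. Its median log2 fold change of −0.097 was the 3rd lowest and that of the *BACE2* scaffold, −0.081, the 5th lowest, over a range of −0.11 to 0.37. For the level of hypomelanistic 1, the *BACE2* scaffold was 2nd lowest and that of *TYR* 7th lowest of 96. A further 3 scaffolds lie on the same chromosome of the newer assembly, with 67, 23 and 20 tested genes. Their shares at an unadjusted p under 0.05 were 10.4%, 0% and 0%, their non-overlapping shares 20.9%, 8.70% and 0%, and their medians 0.050, 0.10 and 0.018. The embryos were grouped by their genotype there, so genes inherited together with it are not independent of the grouping, and the alleles that each embryo carries along this chromosome were not analysed here.

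**Figure D4:**
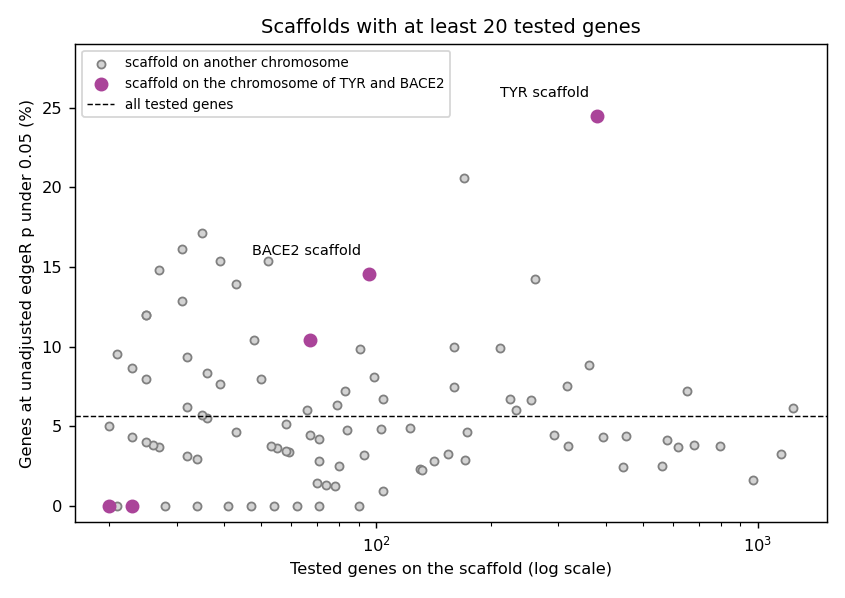
Share of genes at an unadjusted edgeR p under 0.05 (%) against the number of tested genes (log scale) for 96 scaffolds of the CU assembly, with the 5 on the chromosome of *TYR* and *BACE2* in purple. The dashed line is the share over all tested genes, 5.63%. The scaffolds of *TYR* (24.5%) and *BACE2* (14.6%), each counted with its own gene, lie above it.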

How the data were processed

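RNA of dorsal skin from 6 corn snake embryos was sequenced as paired ends after a stranded poly(A) library preparation. The authors aligned read pairs to the CU assembly with STAR 2.7.10b and counted uniquely mapped pairs per gene with featureCounts of Subread 2.0.6, and the deposited values are raw counts without normalization. The sources used here do not say whether the counting used strand. Genes that overlap are therefore uncertain. Of 25735 lines, 4 were broken (*DST* and *MACF1*) and were left out.

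Genes were kept by filterByExpr (17025 of 25731) and scaled by TMM. The main test was the quasi-likelihood test of edgeR 4.0.16 in R 4.3.3, hypomelanistic against wild-type without covariates, with p-values of all tested genes adjusted by Benjamini-Hochberg at 0.05. CPM are given as mean ± SD, and the SE of a log2 fold change is its size divided by the square root of the F statistic. A prior count of 2 was used for log2 CPM. The test was tried on simulated data. Alternatives were DESeq2 1.42.0, its size factors in edgeR, no filter, a mean of at least 1 CPM, voom of limma 3.58.1, ribosomal RNA genes left out, a replicate block, and each library left out. Members that overlap no other gene were counted separately, which was chosen after seeing the data. Same-numbered libraries were checked for shared deviations, and their correlations were −0.084, 0.113 and −0.0059, so the numbers were not taken as pairs. No pair of libraries, within or between the groups, was alike within sampling noise (chi-square over its degrees of freedom, 23.3 to 76.3).

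Members were found by scaffold and ordered by smallest start. Human chromosomes of homologues were assigned by hand from gene names. A newer assembly (ASM5975653v1, *Pantherophis guttatus* Tessera) was used only for biotypes, newer symbols and whether genes share a chromosome. The members, the lists and the naming rule were chosen with earlier results of these data known. The rule took the 10 tested members nearest *BACE2* on each side, the 10 smallest p-values, the largest folds in each direction among members of at least 1 CPM whose groups did not overlap (up to 5), the 5 highest levels per kb, up to 3 members of each of 8 role lists, the 5 widest ranges within a group, and the first and last member. Other members were named for their role after their values had been seen.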

Additional observations from a re-analysis of the deposited data

How the results depend on the processing

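edgeR called 0 members in the main test and under all of its alternatives, and voom called 0, while DESeq2 called 2 (*GATD3* and *DYNLT3*). Leaving out 1 library at a time gave 6 to 12 members at an unadjusted edgeR p under 0.05, beside 13 in the main test (background there 5.63%). It gave 22 to 35 members whose groups do not overlap, beside 18 in the main test (background there 12.2%). Fewer libraries make this easier, and the share over all tested genes is not given for these fits. Nothing is therefore read from these counts. The medians were −0.14 to −0.022 for the members and −0.095 to 0.048 for the 17 tested members nearest *BACE2*. For these 17 the median was −0.081 in the main test and turned to 0.048 without hypomelanistic 1, to 0.017 without wild-type 1 and to 0.0026 with a mean of at least 1 CPM. Of the 60 tested members that overlap no other gene, 10 (16.7%) were at an unadjusted edgeR p under 0.05 and 13 (21.7%) had groups apart. Among all 95 tested members these shares were 13.7% and 18.9%, and over all tested genes 5.63% and 12.2%. With the replicate block, in a fit that takes the numbers as pairs, 12 members were at an unadjusted p under 0.05 (13 without it) and 0 passed. The share over all tested genes at that level is not given for this fit. Both edgeR with DESeq2 size factors and the fit without ribosomal RNA genes gave 31 higher and 64 lower members.

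Of 567 values of named genes under the alternatives, 38 had the opposite sign, 32 of them with 1 library left out. No named gene passed by the edgeR adjusted p in the main test. Over the fits without 1 library, log2 fold changes ran from −0.22 to 0.073 for *PTCHD1*, −0.14 to 0.026 for *PRDX4*, −0.043 to 0.11 for *RPL8*, −0.041 to 0.039 for *DDX3X*, −0.16 to 0.37 for *SIK1*, −0.061 to 0.017 for *U2AF1*, −0.028 to 0.10 for *PKNOX1* and −0.16 to 0.057 for *SLC37A1*. They ran from −0.92 to 0.16 for *TMPRSS3*, −0.11 to 0.42 for *UMODL1*, −0.074 to 0.0039 for *ZBTB21*, −0.019 to 0.11 for *RIPK4*, −0.042 to 0.36 for *TMPRSS2*, −0.53 to 0.030 for *IGSF5*, and −0.50 to 0.75 and −0.70 to 0.18 for *B3GALT5-like* LOC117669393 and LOC117669481. *DDX3X* turned to 0.0012 by DESeq2, 0.00095 with its size factors, 0.00089 without a filter and 0.0031 without ribosomal RNA genes. LOC117669393 turned to 0.060 by voom and 0.081 with the replicate block. The causes were not tested. Depth limits the 20 tested members under 1 CPM.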
